A study of Mus musculus with 6 samples.

Results

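The vascular endothelial growth factor (VEGF) genes and the genes of their receptors were followed in lungs of Igf1-/- and Igf1+/+ mouse embryos. The 10 genes are the ligands Vegfa, Vegfb, Vegfc, Vegfd and Pgf, the receptor kinases Flt1, Kdr and Flt4, and the neuropilin coreceptors Nrp1 and Nrp2. They were read by every probe set whose platform annotation names 1 of these symbols and no other, which gave 18 of the 22626 mouse probe sets and 10 of 12393 named genes. All 10 genes were measured, by 8 probe sets for ligands, 6 for receptor kinases and 4 for neuropilins. No filter on low values was applied.

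The embryos were of embryonic day 18.5, on a C57BL/6J background, and came from matings of heterozygous parents. The Igf1-/- group is homozygous for a null allele of Igf1 in every cell of the embryo, and the Igf1+/+ group is wild type. Each group has 3 arrays of whole lung RNA. Per the methods, pups were delivered by caesarean section and had breathed for a short time before dissection. The labels speak of lungs pooled for RNA and also of biological replicates, so the p values measure the spread between these arrays, each of which may stand for 1 animal or for a pool.

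VEGF ligands are secreted dimers that bind receptor tyrosine kinases on endothelial cells. VEGF-A, made in the developing lung mainly by epithelium, drives capillary growth through KDR (VEGFR2), while FLT1 (VEGFR1) binds VEGF-A tightly and signals weakly, and its soluble form holds the ligand back. VEGF-C and VEGF-D act on lymphatic vessels through FLT4 (VEGFR3), VEGF-B and PlGF bind FLT1 alone among the kinases, and neuropilins hold ligands at the kinases and also serve as semaphorin receptors.

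Values were deposited as RMA expression on the log2 scale, so that a difference of 1 stands for a doubling. Their medians lay between 6.85 and 6.89 in the 6 arrays, and pairs of arrays correlated at 0.992 to 0.996 over all mouse probe sets. Igf1 itself read 8.87, 8.99 and 9.38 in Igf1-/- lungs and 9.28, 9.85 and 9.65 in Igf1+/+ lungs at its brightest probe set, where the groups overlapped, as they did at another. The groups stood apart at the dimmest of its 3 probe sets, with 6.15, 6.33 and 6.46 against 6.60, 7.12 and 6.97. No source at hand places these probe sets relative to the disrupted part of the gene, and they therefore check the labels little. The library labelled Igf1-/- replicate 3 stood apart in 8 cardiac muscle markers, whose mean was 9.87 there and 8.38 to 8.58 in the other arrays. By Xist and the Y-linked gene Eif2s3y, Igf1-/- replicate 1 and Igf1+/+ replicate 3 read as male and the other arrays as female. Xist was 7.09 in the first of these, 3.50 in the second and 12.1 to 12.2 in the female arrays. Igf1-/- replicate 1 thus held both Y-linked signal and more Xist than the other male array, and whether it mixes sexes was not tested.

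Lower values in Igf1-/- lungs prevailed among the 18 probe sets. The difference between genotypes, Igf1-/- minus Igf1+/+, was estimated with limma, with Benjamini-Hochberg adjustment over every mouse probe set, and a probe set is called (rose or fell) when its adjusted p is under 0.10. By that measure 2 of the 18 fell, 1 of Vegfa and 1 of Flt1, where 0.393% of all mouse probe sets fell, and 0 rose, where 0.164% of all did. At an adjusted p under 0.20, 5 were lower, of Vegfa, Vegfd and Flt1, against 1.62% of all. At an unadjusted p under 0.05, 10 were lower and 0 higher, against 6.28% of all for lower values. Those 10 were of Vegfa, Vegfc, Vegfd, Flt1, Kdr, Nrp1 and Nrp2. These are counts of probe sets and not of genes, and Vegfd 1438953_at and 1438954_x_at correlated at 0.995. In 8 probe sets, of Vegfa, Vegfd, Flt1, Kdr and Nrp2, every Igf1-/- array lay below every Igf1+/+ array, against 7.26% of all probe sets. In 0 of the 18 did every Igf1-/- array lie above, against 10.8% of all. The median difference of the 18 was -0.23, with 13 below zero, and that of all mouse probe sets was 0.03. Without Igf1-/- replicate 3, 13 were below zero and 8 did not overlap, against 10.7% of all. With another array left out, 10 to 15 were below zero and 8 to 10 did not overlap, against 9.78% to 15.5% of all. The study picked Vegfa, Vegfc, Flt1 and Nrp2 on these same arrays, and that choice is no independent evidence of their direction. The paper also reports qRT-PCR of a subset of its genes in other lungs, with directions that matched the arrays. Its primer list holds Vegfa, but not Vegfc, Flt1 or Nrp2. In whole lung, fewer cells of a type and less RNA per cell cannot be told apart.

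**Figure D1:**
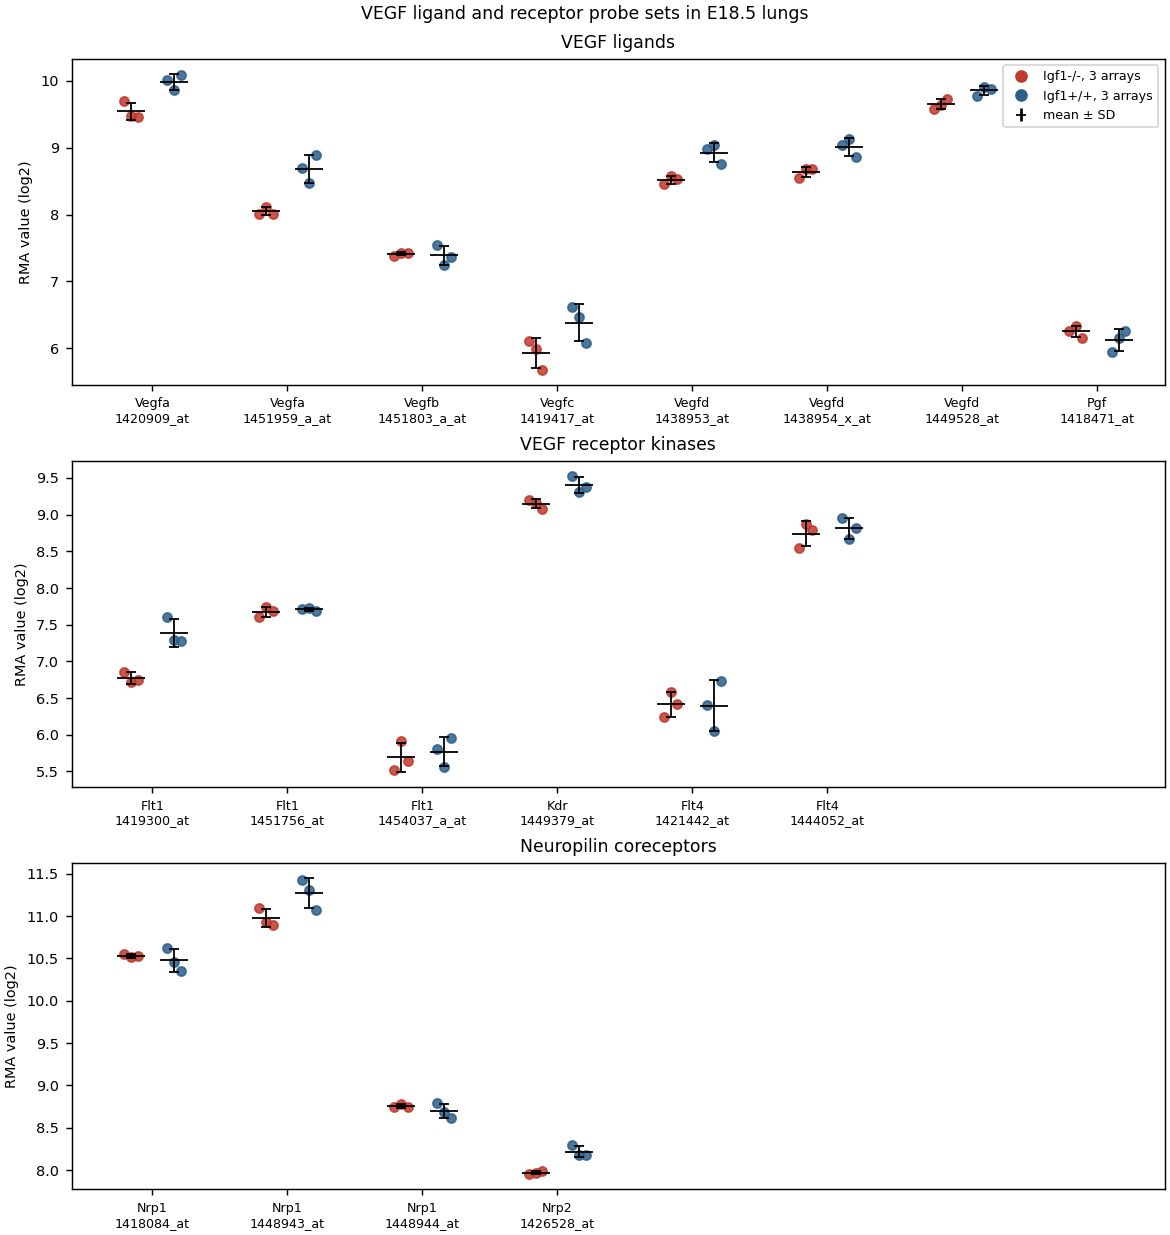
RMA value on the log2 scale (vertical axis) of each of the 18 probe sets (horizontal axis) in the 3 Igf1-/- and 3 Igf1+/+ lungs, 1 point per array, with the mean and SD of each genotype. At the Vegfa probe set 1451959_a_at the Igf1-/- lungs lie between 8.01 and 8.12 and the Igf1+/+ lungs between 8.47 and 8.89, whereas the Vegfb, Flt4 and Pgf points of both genotypes overlap.

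The upstream sequences of Vegfa, Flt1 and Vegfd are shown because these are the ligand and the receptor that fell and the ligand with most probe sets apart. Each run is the 250 bases before the most upstream RefSeq start listed in GRCm38.p6, 5′ to 3′ on the strand of the gene. Capitals mark matches, on either strand, of GGGCGG (the GC box core), TATAAA (the TATA box), TGACGTCA (the cyclic AMP response element), GGAAGT (an ETS motif) and ACGTG (the core of the hypoxia response element).
Vegfa, chr17:46032378-46032627, minus strand: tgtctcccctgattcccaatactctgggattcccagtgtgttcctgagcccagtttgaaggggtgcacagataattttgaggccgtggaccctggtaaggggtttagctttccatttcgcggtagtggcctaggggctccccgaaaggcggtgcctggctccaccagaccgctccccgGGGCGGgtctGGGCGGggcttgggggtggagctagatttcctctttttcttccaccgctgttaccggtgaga
Flt1, chr5:147726012-147726261, minus strand: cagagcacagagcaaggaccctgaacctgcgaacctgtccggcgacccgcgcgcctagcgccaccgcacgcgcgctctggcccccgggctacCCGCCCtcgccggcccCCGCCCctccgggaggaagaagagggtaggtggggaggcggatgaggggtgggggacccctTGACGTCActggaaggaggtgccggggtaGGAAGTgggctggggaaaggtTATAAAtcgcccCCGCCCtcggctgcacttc
Vegfd, chrX:164373272-164373521, plus strand: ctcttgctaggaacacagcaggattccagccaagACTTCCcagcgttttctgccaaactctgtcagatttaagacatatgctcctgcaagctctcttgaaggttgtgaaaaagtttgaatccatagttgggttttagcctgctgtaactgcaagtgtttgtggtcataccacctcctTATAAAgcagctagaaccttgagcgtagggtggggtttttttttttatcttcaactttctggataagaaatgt
The Vegfa run holds 2 GC boxes that start 72 and 62 bases before the start and no TATA box, and its GC content is 59.2%. The Flt1 run holds a TATA box 31 bases and a cyclic AMP response element 81 bases before the start, with 3 GC boxes and an ETS motif, at a GC content of 70.4%. The Vegfd run has a TATA box 73 bases before the start, an ETS motif and no GC box, at a GC content of 42.4%. All 10 genes matched an entry of the table, and 9 of them, all but Vegfd, held a GC box in this window, which 32.7% of the 32851 listed promoters held. The TATA box was in 2 of the 10 and in 12.4% of all, the ETS motif was in 3, those of Vegfd, Flt1 and Kdr, and in 19.7% of all, and the cyclic AMP response element was in Flt1 alone of the 10 and in 1.55% of all. ACGTG was in 0 of the 10 windows and in 16.6% of all. A match is only a match of letters, and these arrays measure no binding at a promoter.

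Vegfa, the main angiogenic ligand, was lower in Igf1-/- lungs at both of its probe sets. At 1451959_a_at it read 8.01, 8.12 and 8.01 in Igf1-/- lungs and 8.69, 8.47 and 8.89 in Igf1+/+ lungs. The 3 Igf1-/- values lie within a narrow band below the lowest Igf1+/+ value, with a gap of 0.36. The difference was -0.64 (SE 0.11, n = 3 per genotype, adjusted p = 0.0665), so this probe set fell, 1.56-fold. Its adjusted p ran from 0.0389 to 0.25 over the alternative settings, and the call was lost without Igf1+/+ replicate 1 (0.214) or any Igf1-/- array (0.153 to 0.25). The other probe set, 1420909_at, read 9.69, 9.47 and 9.46 in Igf1-/- lungs and 10.002, 9.86 and 10.09 in Igf1+/+ lungs. These groups did not overlap either, and the difference of -0.44 (SE 0.10, adjusted p = 0.122) did not pass the threshold. With sex as a block its adjusted p was 0.097. The probe sets correlated at 0.93 over the 6 arrays and at 0.54 once each genotype's mean was removed, as a description of 6 arrays.

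Vegfd, a ligand of FLT4 whose gene lies on the X chromosome, was lower at all 3 of its probe sets without passing the threshold at any. At 1438953_at it read 8.46, 8.57 and 8.53 in Igf1-/- lungs and 8.98, 9.03 and 8.76 in Igf1+/+ lungs. No Igf1-/- array reached the lowest Igf1+/+ array, which was replicate 3, 1 of the 2 arrays that read as male. The difference was -0.40 (SE 0.09, adjusted p = 0.137). At 1438954_x_at, whose values followed those of 1438953_at with a correlation of 0.995, the difference was -0.37 (SE 0.09, adjusted p = 0.158). The brightest, 1449528_at, read 9.58, 9.64 and 9.72 against 9.77, 9.91 and 9.88, a difference of -0.21 (SE 0.08, adjusted p = 0.333). Here the groups were only 0.05 apart. With sex as a block the adjusted p was 0.115, 0.134 and 0.373 in the same order. Without Igf1+/+ replicate 3 the first 2 passed, with 0.0474 and 0.0589.

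Vegfc, which guides the budding of lymphatic vessels, read 6.11, 5.99 and 5.68 in Igf1-/- lungs and 6.61, 6.47 and 6.08 in Igf1+/+ lungs at its 1 probe set. The lowest array of each genotype was replicate 3, and the highest Igf1-/- value exceeded the lowest Igf1+/+ value. The difference of -0.46 was as large as that of the second Vegfa probe set, but its SE was 0.15 and its adjusted p 0.283. Without Igf1+/+ replicate 3 it was -0.61, with an adjusted p of 0.0808.

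Vegfb and Pgf, the ligands that bind FLT1 alone among the kinases, had differences above zero. Vegfb read 7.39, 7.42 and 7.43 in Igf1-/- lungs and 7.55, 7.25 and 7.37 in Igf1+/+ lungs, so the Igf1+/+ arrays lay on both sides. Its difference was 0.03, with a 95% interval from -0.18 to 0.23 (adjusted p = 0.926). Pgf read 6.27, 6.34 and 6.16 against 5.94, 6.16 and 6.26, with a difference of 0.13 and an interval from -0.09 to 0.36 (adjusted p = 0.605). The Pgf difference was 0.04 without Igf1+/+ replicate 1 and 0.20 without Igf1+/+ replicate 3. Neither interval reaches the Vegfa difference of -0.64.

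Flt1, which encodes the high-affinity VEGF-A receptor and its soluble form, gave different answers at its 3 probe sets. At 1419300_at it read 6.86, 6.71 and 6.75 in Igf1-/- lungs and 7.61, 7.29 and 7.27 in Igf1+/+ lungs. The groups were 0.41 apart, the widest gap among the 18 probe sets, and the difference was -0.62 (SE 0.10, adjusted p = 0.0673), a 1.53-fold decrease. At 1451756_at the values were 7.60, 7.74 and 7.68 against 7.72, 7.73 and 7.68, and the difference of -0.03 had a 95% interval from -0.20 to 0.13. At 1454037_a_at they were 5.52, 5.91 and 5.64 against 5.80, 5.56 and 5.95, with a difference of -0.08 and an interval from -0.37 to 0.21. The interval of 1419300_at ran from -0.85 to -0.38. A difference between the probe sets of a gene was not tested. No source at hand says which Flt1 transcripts each probe set reads. The adjusted p of 1419300_at was 0.102 with sex as a block and 0.204 when the 3 probe sets were averaged. The call was lost when any array but Igf1+/+ replicate 3 was left out (0.125 to 0.25).

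Kdr, the main signalling receptor of VEGF-A, read 9.20, 9.16 and 9.08 in Igf1-/- lungs and 9.53, 9.31 and 9.38 in Igf1+/+ lungs. All Igf1-/- arrays lay below all Igf1+/+ arrays by at least 0.11. The difference of -0.26 (SE 0.08, adjusted p = 0.267) did not pass the threshold. Flt4, the receptor of VEGF-C and VEGF-D, had differences of 0.02 at 1421442_at, with an interval from -0.35 to 0.38, and of -0.07 at 1444052_at, with an interval from -0.32 to 0.18. Both probe sets overlapped between genotypes.

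Nrp2, the neuropilin of veins and lymphatic vessels, read 7.95, 7.97 and 7.99 in Igf1-/- lungs and 8.29, 8.18 and 8.18 in Igf1+/+ lungs. The Igf1-/- arrays had an SD of 0.019 and all lay at least 0.19 below the Igf1+/+ arrays. The difference was -0.24 (SE 0.07, adjusted p = 0.233). Nrp1, the neuropilin that binds VEGF-A at KDR, read 11.1, 10.9 and 10.9 at 1448943_at against 11.4, 11.3 and 11.1, with a difference of -0.29 (SE 0.11, adjusted p = 0.311) and overlapping groups. At 1418084_at and 1448944_at its differences were 0.05 and 0.06, with intervals from -0.14 to 0.25 and from -0.11 to 0.23. Over the 6 arrays, 1448943_at correlated at 0.28 with 1418084_at and at 0.03 with 1448944_at, and once genotype means were removed at 0.88 and 0.77.

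**Figure D2:**
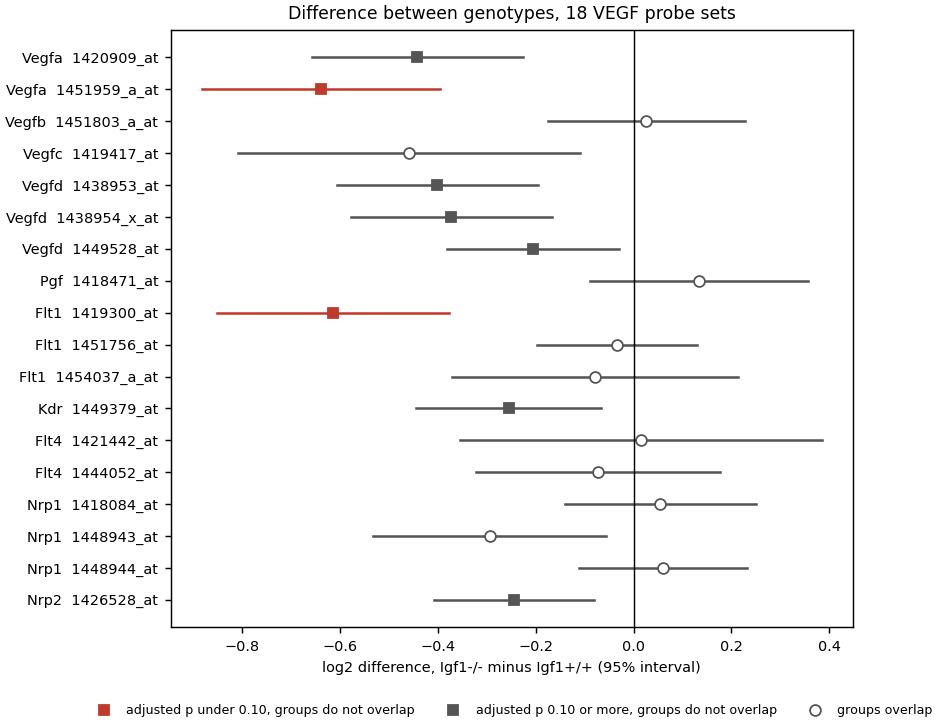
Log2 difference between Igf1-/- and Igf1+/+ lungs (horizontal axis) with its 95% limma interval for each of the 18 probe sets. The 2 probe sets that fell, Vegfa at -0.64 and Flt1 at -0.62, are drawn as red squares, grey squares mark other probe sets whose groups do not overlap, and open circles mark groups that overlap.

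The other genes of the pathway were counted in fixed lists, each gene at its probe set with the highest mean. Over 12393 genes, 0.452% fell and 0.145% rose at that probe set, 5.66% were lower and 7.04% higher at an unadjusted p under 0.05, and the median difference was 0.03. The lists other than the 10 genes held 157 genes, of which 9 fell and 0 rose. Lists share members, such as Apln, Cdh5 and Pdpn.

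None of the genes upstream of VEGF action passed the threshold. Of 8 oxygen-sensing genes that control Vegfa transcription, 7 had a lower value, 0 fell or rose by limma, 2 were lower and 1 higher at an unadjusted p under 0.05, and the median was -0.06. The lowest unadjusted p were those of Egln3 and Egln1, the prolyl hydroxylases that mark HIF for breakdown and are themselves HIF targets. Egln3 read 7.67, 8.44 and 7.93 in Igf1-/- lungs and 8.93, 8.54 and 8.46 in Igf1+/+ lungs, with a difference of -0.63 (SE 0.19, adjusted p = 0.244). Its groups were just apart. Egln1 had a difference of -0.23 (adjusted p = 0.312) and -0.41 at its dimmer probe set (adjusted p = 0.136). Of 3 measured genes that process VEGF-C and VEGF-D, 2 were lower, and the proteases Furin, at -0.15, and Pcsk7, at 0.04, had overlapping groups.

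Of 9 measured semaphorins and plexins, 6 were lower, 0 fell or rose by limma, and the median was -0.02. At an unadjusted p under 0.05, 2 were lower and 1 higher. The semaphorin Sema3e had -0.31 (adjusted p = 0.175) and the plexin Plxna3 0.36 (adjusted p = 0.159), each with groups that did not overlap. The other 2 Sema3e probe sets, at -0.13 and -0.08, overlapped. Of 33 genes of VEGF receptor signalling inside the cell, 18 were lower and 0 fell or rose by limma, with 5 lower and 1 higher at an unadjusted p under 0.05 and a median of -0.01. Sphk1, which makes sphingosine 1-phosphate, read 8.02, 8.38 and 7.81 in Igf1-/- lungs and 8.84, 8.52 and 8.86 in Igf1+/+ lungs, a difference of -0.67 (SE 0.15, adjusted p = 0.135). Hspb1, a small heat shock protein phosphorylated downstream of VEGF, had -0.34 (adjusted p = 0.137). Both were lower in every Igf1-/- array.

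Genes that VEGF induces in endothelial cells held 4 of the 9 decreases. Of 13, 11 were lower and 4 fell, and the median was -0.22. At an unadjusted p under 0.05, 5 were lower and 1 higher. The higher gene, Egr3, had 0.18 (adjusted p = 0.355), with every Igf1-/- array above every Igf1+/+ array. Nr4a1, an orphan nuclear receptor, read 8.02, 7.77 and 8.04 against 10.2, 11.1 and 10.4 and fell 6.13-fold (adjusted p = 0.00179). Egr1, a zinc finger transcription factor, read 7.73, 8.03 and 8.24 against 10.35, 10.99 and 9.83 and fell 5.23-fold (adjusted p = 0.00964). Both are immediate-early genes that many stimuli and cell types switch on, so they are not particular to VEGF. The paper names normal breathing by the wild-type pups before dissection as a possible reason for their difference, and IGF1 signalling as another. Neither was tested here. F3, tissue factor, fell 1.83-fold (adjusted p = 0.0896). Apln, the apelin ligand of tip cells, fell 1.45-fold (SE 0.08 on the log2 scale, adjusted p = 0.0389). The 3 Igf1-/- arrays of Apln lay between 7.53 and 7.61, below all Igf1+/+ arrays. Dll4, at -0.02, Angpt2, at -0.002, and Esm1, at 0.01, had overlapping groups, so the list did not fall as a whole. Leaving out any Igf1-/- array or Igf1+/+ replicate 1 left 2 calls in this list.

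Of 16 other angiogenic ligands and receptors, 9 were lower, 1 fell, Apln again, and the median was -0.05. Of 9 partners of the receptors at endothelial junctions, 6 were lower and 0 fell or rose by limma, with 1 lower at an unadjusted p under 0.05. That gene, Cdh5, VE-cadherin, had a difference of -0.24 (adjusted p = 0.319) at its brightest probe set, with groups that did not overlap, and 0.01 at its dimmer one. Ephb4, a venous ephrin receptor, had 0.28 (adjusted p = 0.478).

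**Figure D3:**
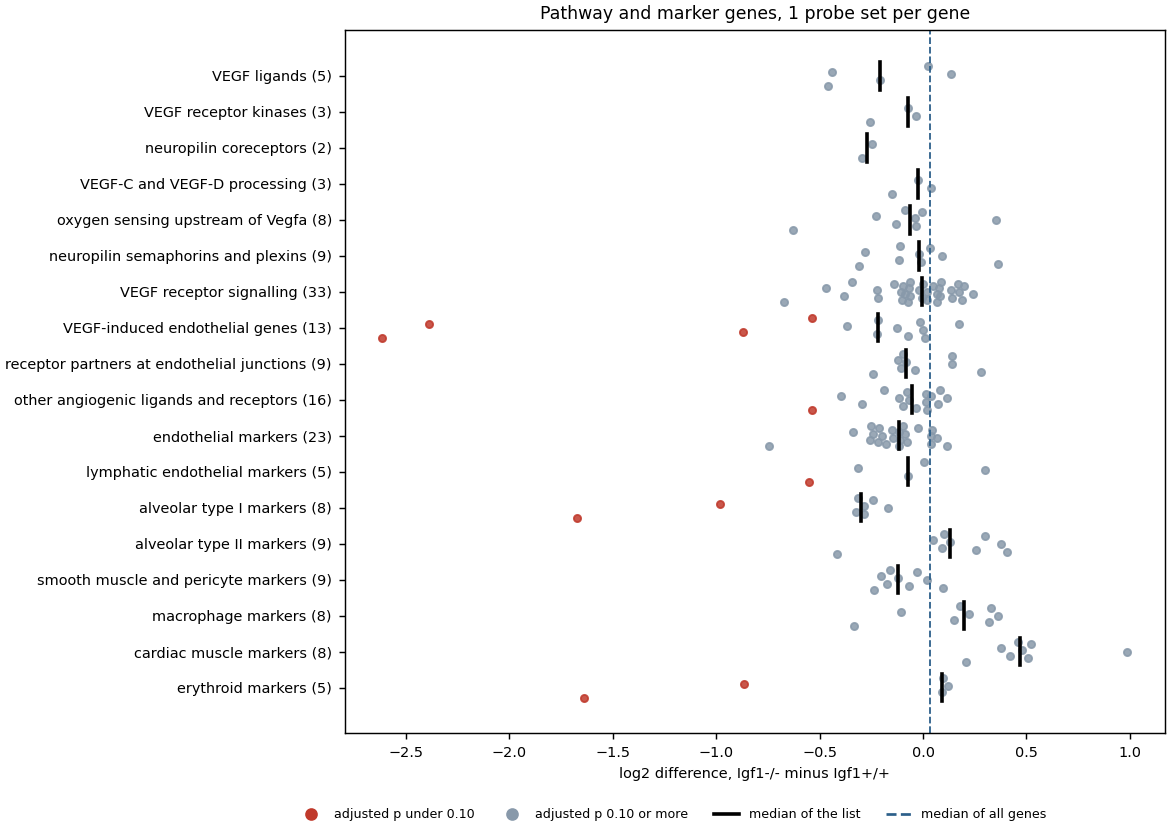
Log2 difference between Igf1-/- and Igf1+/+ lungs (horizontal axis) of each measured gene in 18 lists, with the number measured in brackets, 1 probe set per gene. Black bars are list medians and the dashed line is the median of all genes, 0.03. Red points are genes with an adjusted p under 0.10, all of them lower, with Nr4a1 and Egr1 farthest left.

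Markers of the cells that make or receive VEGF were counted in the same way, on a scale without zeros whose lowest value was 3.10. Endothelial markers were lower in 18 of 23 genes, 5 of them at an unadjusted p under 0.05, 0 fell or rose by limma, and the median was -0.12. Their summed level on the linear scale was 19933 to 22711 in Igf1-/- lungs and 22206 to 24902 in Igf1+/+ lungs. Pecam1, at 0.04, and Tek, at 0.04, had overlapping groups, while Car4, a carbonic anhydrase of lung capillaries, had -0.75 (SE 0.25, adjusted p = 0.273), with every Igf1-/- array lower. Lymphatic markers were lower in 3 of 5, and Lyve1, a hyaluronan receptor, fell 1.47-fold (adjusted p = 0.091). This call was lost when any array but Igf1+/+ replicate 3 was left out. At its dimmer probe set, with a mean of 9.80, Lyve1 had -0.58 (adjusted p = 0.0305). That probe set passed the threshold too, with every Igf1-/- array lower. Its calls with an array left out were not counted. The summed level of the lymphatic list was 2130.2 to 2356 against 2507 to 3079.9.

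Type I markers, of the flat alveolar epithelium where Vegfa is known to be made, were lower in 8 of 8 genes. Their median was -0.30, and the summed level was 19586 to 23071 in Igf1-/- lungs and 25303 to 27210.5 in Igf1+/+ lungs. Aqp5, a water channel, fell 1.97-fold (adjusted p = 0.0173) and Rtkn2 3.19-fold (adjusted p = 0.0382). Without Igf1-/- replicate 1 or 3 or Igf1+/+ replicate 1, 1 call was left. Type II markers were lower in 1 of 9 with a median of 0.13, and 0 fell or rose by limma, with 1 lower and 3 higher at an unadjusted p under 0.05. Their summed level was 56169.6 to 63074 against 53547 to 58769.9. Napsa, the aspartic protease of type II cells, had 0.41 (adjusted p = 0.214) and Sftpd, surfactant protein D, -0.42 (adjusted p = 0.288). The groups did not overlap for either.

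Smooth muscle and pericyte markers were lower in 7 of 9 with a median of -0.12, and Myh11, at -0.24, and Notch3, at -0.12, had overlapping groups, and their other probe sets had 0.02 and 0.09. Their summed level was 7017 to 8160.5 against 8038 to 8488. Macrophage markers were lower in 2 of 8 with a median of 0.20, and Fcer1g and Csf1r, at 0.33 and 0.32, were higher in every Igf1-/- array without passing the threshold. The summed level of the macrophage markers was 6821 to 9024 against 7375 to 9697. Lyz2, the brightest of them with a mean of 12.2, weighs most in this sum. It had a difference of -0.33, with overlapping groups. Cardiac markers were lower in 0 of 8, with a median of 0.47, and their summed level was 4959.9 to 11126 against 4367 to 5198, with the highest value in Igf1-/- replicate 3. Among them Myh7 had 0.21 and Tnni3 0.51, both with overlapping groups. Erythroid markers were lower in 2 of 5, with a median of 0.09. Both lower genes fell, Slc4a1, the anion exchanger of red cells, 3.11-fold and Alas2, which starts haem synthesis in red cells, 1.82-fold. The 3 others, Epb42, Hba-a1 and Rhag, had means of 4.42, 3.99 and 3.77, near the lowest value of the scale. Another Slc4a1 probe set, with a mean of 7.08, had -2.02 (adjusted p = 0.00179), with every Igf1-/- array lower. The Slc4a1 probe set with the lowest mean, 4.20, had -0.16, with overlapping groups. In the list, 1 call was left without Igf1-/- replicate 2 or 3 or Igf1+/+ replicate 1 or 2. The part of the smooth muscle, macrophage, cardiac and erythroid lists in the VEGF values was not tested.

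Every member but Vegfb and Pgf was also read against the mean log2 value of a list in the same array, Vegfa against type I markers, Vegfc and Vegfd against markers of the lymphatic cells they act on, and the receptors against endothelial markers. These are differences relative to other genes and not levels. Of 16 such differences, 6 had groups that did not overlap, 4 lower and 2 higher, and 10 overlapped. The exact two-sided permutation p of each of the 6 was 0.1, the smallest that 3 arrays against 3 allow, so none can pass a threshold of 0.05. The share of all probe sets that stand apart relative to the same lists was not counted. Without a list, 7.26% of all were apart and lower and 10.8% apart and higher. The 6 of 16 are therefore a description and no result about the members.

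Relative to type I markers, both Vegfa probe sets overlapped between genotypes. The difference was -0.10 at 1451959_a_at and 0.09 at 1420909_at (exact two-sided permutation p = 0.5 for each). The type I list mean itself was 10.38, 10.53 and 10.21 in Igf1-/- lungs and 10.99, 10.79 and 10.95 in Igf1+/+ lungs, so the list too was lower in every Igf1-/- array. Its mean differed by -0.53, more than the median of its genes, -0.30. Rtkn2, at -1.67, and Aqp5, at -0.98, had the largest differences in it. Whether Vegfa overlaps relative to the list without them was not tested. Vegfd stayed lower relative to lymphatic markers at 1438953_at, by -0.27, and at 1438954_x_at, by -0.25, and overlapped at 1449528_at. Vegfc, at -0.33, overlapped. The lymphatic list holds 5 genes, from Lyve1 at -0.55 to Reln at 0.30, and its mean differed by -0.13. These relative values therefore depend on which genes are in the list.

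Relative to endothelial markers, Flt1 at 1419300_at was lower by -0.47, with values of -2.43, -2.60 and -2.40 in Igf1-/- lungs and -1.87, -2.03 and -2.12 in Igf1+/+ lungs. All 3 Igf1-/- arrays lay below the Igf1+/+ arrays. Kdr was lower by -0.11, also without overlap, and Nrp2, at -0.10, and Nrp1 at 1448943_at, at -0.15, overlapped. The other 2 Nrp1 probe sets were higher relative to the list, by 0.20 each, without overlap. Their own levels differed by only 0.05 and 0.06, with overlapping groups. The other Flt1 probe sets and both Flt4 probe sets overlapped relative to the list, with differences from 0.06 to 0.16. The endothelial list mean itself was 9.30, 9.31 and 9.15 in Igf1-/- lungs and 9.48, 9.32 and 9.39 in Igf1+/+ lungs. It differed by -0.14, with groups just apart, so these relative values hold the shift of the list too.

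**Figure D4:**
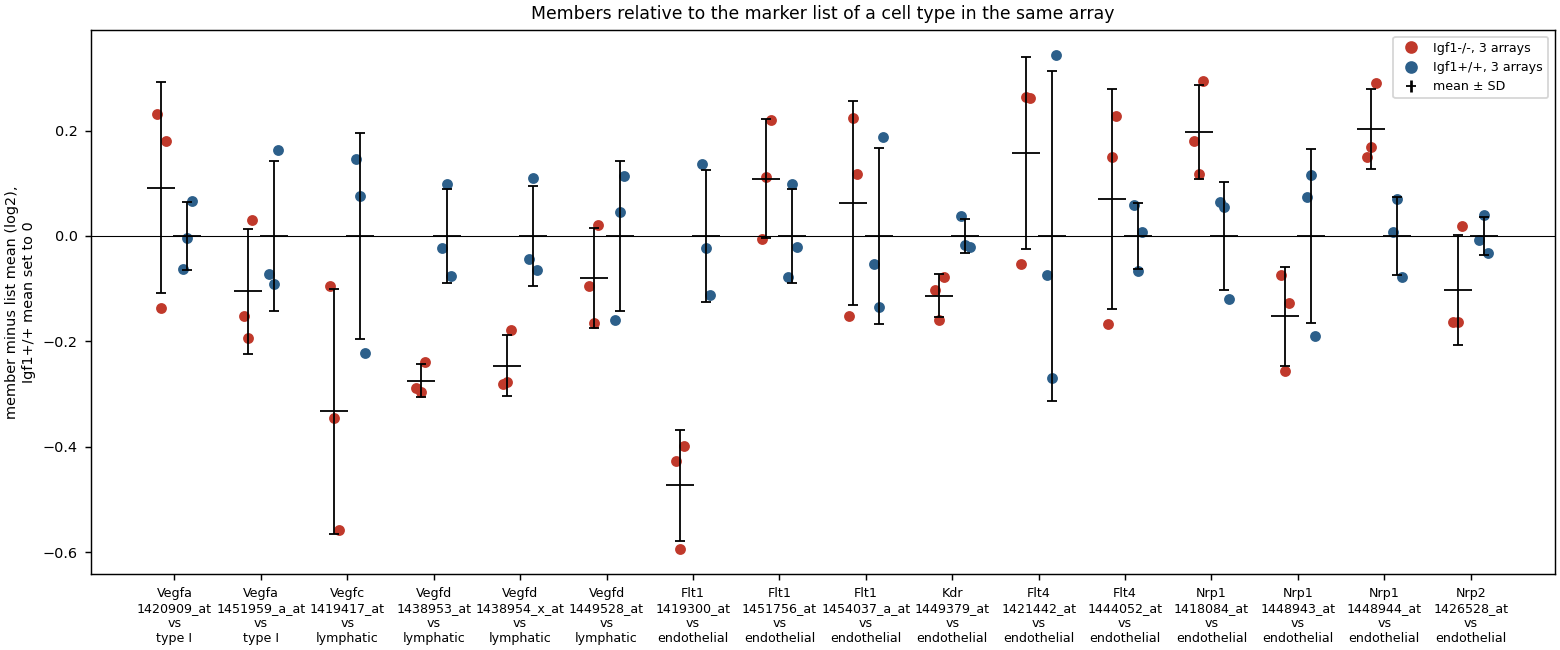
Value of 16 member probe sets minus the mean log2 value of a marker list in the same array, with the Igf1+/+ mean set to 0 (vertical axis), 1 point per array with mean and SD. The Flt1 probe set 1419300_at lies 0.47 below the Igf1+/+ mean on average with groups apart, whereas both Vegfa probe sets overlap against type I markers.

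The genes most like the members that fell were taken as those with the highest Pearson correlation over the 6 arrays, as a description with no test, in which all points share the same 6 arrays and the split by genotype. For Vegfa at 1451959_a_at these were Evpl, Hfe, Limd2, Ube2o and Serpinb6a, with correlations from 0.987 to 0.992. Of them Ube2o fell, by 0.44 on the log2 scale (adjusted p = 0.0754), and Limd2, at -0.03, had nearly equal levels in both genotypes. For Flt1 at 1419300_at they were Adam9, 2 probe sets of Apcdd1, Shroom3 and Taf4, from 0.990 to 0.999, and Adam9, a membrane metalloprotease, fell by 0.57 on the log2 scale (adjusted p = 0.0709). With genotype means removed, the nearest were Anxa13, Ubr2, Plod2, Srgap2 and Elf4 for Vegfa and Sgpp1, Lamtor1, Frk, Scarb1 and Trpc6 for Flt1, and none of these 10 was among the former. None of the 10 fell or rose.

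**Figure D5:**
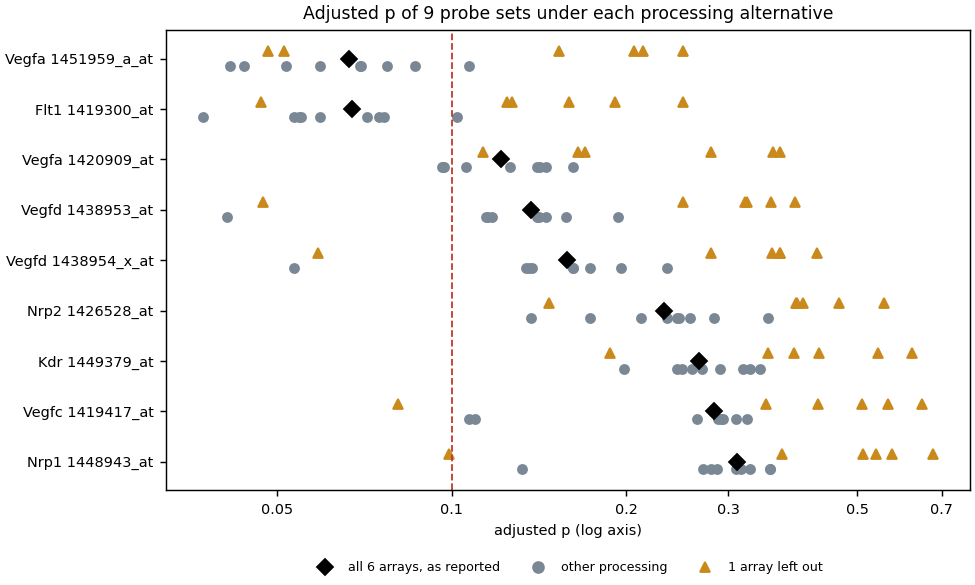
Adjusted p (horizontal log axis) of 9 member probe sets with all 6 arrays as reported, under other processing and with 1 array left out. The dashed line is 0.1. Vegfa 1451959_a_at, at 0.0665, and Flt1 1419300_at, at 0.0673, lie left of it as reported, and both reach 0.25 when Igf1-/- replicate 3 is left out.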

How the data were processed

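Total RNA of 3 Igf1-/- and 3 Igf1+/+ lungs was hybridised to Affymetrix 3-prime expression arrays, 1 array per replicate. The deposited log2 values were made by the authors with RMA over 12 arrays, 6 of them cochlear and not used here, with no version named by the sources at hand. The methods state 5 µg of RNA and separate samples, whereas the labels state 6 µg and pooled lungs.

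Of 22690 probe sets, 64 controls were left out. Names came from the platform annotation, where 20380 mouse probe sets have 1 symbol, 691 several and 1555 none. Each probe set was fitted with limma 3.58.1 in R 4.3.3 with genotype as the only term. P values were adjusted by Benjamini-Hochberg over 22626 probe sets, and an adjusted p under 0.10 counts as a call. Intervals are limma's 95% intervals. The study's methods name SAM, which was run as an alternative with a false discovery rate from 20 labellings. The fit was tested on simulated data with known changes.

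All 18 member probe sets are named. From each other list, the genes called are named or, where none was, the 2 with the lowest unadjusted p, and of the endothelial markers also Pecam1, Cdh5 and Tek. Some further list genes were named after seeing the data. The 5 probe sets most correlated with each member that fell, before and after removing genotype means, are named too. Members and lists were chosen with earlier results of these data known. Alternatives were a block for the replicate number, centring, quantile normalization, leaving out dim probe sets, a variance trend with robust estimates, array weights, SAM, controls kept, means over the probe sets of a gene, other thresholds, a minimum fold of 1.5 and leaving out each array. Sex as a block was added after seeing the data. RefSeq sequences are of GRCm38.p6. The number of arrays limits the precision.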

Additional observations from a re-analysis of the deposited data

How the results depend on the processing

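Over all probe sets, 89 fell and 37 rose. The counts were 140 and 64 with a variance trend and robust estimates, 399 and 229 with array quality weights, 40 and 14 at an adjusted p under 0.05 and 366 and 222 under 0.20. With a fold of at least 1.5, 21 rose. Leaving out 1 array gave 31 to 481 that fell and 14 to 229 that rose, the highest counts without Igf1+/+ replicate 3. Of the 18 VEGF probe sets, the 2 calls became 1 with the replicate block, 5 with array weights, 0 under 0.05, 5 under 0.20 and 0 to 6 with 1 array left out, 0 without Igf1-/- replicate 1, 2 or 3 or Igf1+/+ replicate 1, 1 without Igf1+/+ replicate 2 and 6 without Igf1+/+ replicate 3. The 9 calls in the other lists became 4 to 14 with 1 array left out.

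Same-numbered arrays of both genotypes did not deviate together, with correlations of -0.04, -0.23 and -0.14, so the numbers do not pair them. With the replicate number as a block, Vegfa 1451959_a_at had -0.64 with an adjusted p of 0.107. With sex as a block, Flt1 1419300_at had -0.62 (0.102) and Vegfa 1420909_at -0.44 (0.097), and the latter passed also with a variance trend (-0.44, 0.0965) and array weights (-0.38, 0.0962). Array weights made Vegfd 1438953_at (-0.46, 0.041) and 1438954_x_at (-0.43, 0.0535) pass. By gene means, Vegfa had -0.54 (0.0389), Flt1 -0.24 (0.204), Flt4 -0.0286 and Nrp1 -0.0597, which turned the sign of the Flt4 probe set 1421442_at and of 2 Nrp1 probe sets.

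With 1 array left out, differences ran from -0.75 to -0.54 for Vegfa 1451959_a_at, from -0.67 to -0.50 for Flt1 1419300_at, from -0.61 to -0.33 for Vegfc, from -0.48 to -0.35 and from -0.45 to -0.31 for Vegfd 1438953_at and 1438954_x_at, and from -0.39 to -0.21 for Nrp1 1448943_at. Some of these passed or lost the threshold. Without the sign turning, Pgf ran from 0.0445 to 0.20 and Nrp1 1448944_at from 0.0193 to 0.11. Signs turned for Vegfb (-0.043 to 0.10), Flt1 1451756_at (-0.0648 to 0.00194) and 1454037_a_at (-0.19 to 0.0122), Flt4 1421442_at (-0.16 to 0.18) and 1444052_at (-0.15 to 0.0246) and Nrp1 1418084_at (-0.00692 to 0.13), none of which passed the threshold. With SAM, Vegfa 1451959_a_at and Flt1 1419300_at had a false discovery rate of 0.0593 each. Leaving out dim probe sets removes Pgf, Vegfc, Flt4 1421442_at and Flt1 1454037_a_at, so they have no value there. The causes were not tested.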
